A study of Mus musculus with 16 samples.

Results

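The genes described here mark the pyramidal cells of the hippocampal fields CA1, CA2 and CA3. They were chosen by name, with earlier results of these data known. The choice was Wfs1, Fibcd1, Pou3f1 and Spink8 for CA1, Rgs14, Pcp4 and Amigo2 for CA2, and Grik4, Bok and Map3k15 for CA3. Of the 10 genes, 9 have a probe set (a group of short probes read as 1 value) whose only gene symbol in the platform annotation is theirs. Map3k15 has none in that annotation and was not analysed here. The 9 genes are among 18193 genes with such a probe set, and are read by 11 of the 45037 probe sets on the array, with 5 for CA1 genes, 4 for CA2 genes and 2 for CA3 genes.

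Hippocampal RNA of 16 male mice aged 12 months was measured on 16 Affymetrix arrays, 1 mouse per array, in 4 groups of 4. The SAMP8 line ages early and has memory deficits by this age. Control mice came from a backcross of SAMP8 to CD-1 stock, were 50% SAMP8, had no such deficits and received no treatment. The other groups were untreated SAMP8 mice, SAMP8 mice given a random antisense oligonucleotide (Random antisense), and SAMP8 mice given an antisense oligonucleotide against the amyloid beta precursor protein (AβPP antisense), both into a vein. No treated Control mice were measured, so line and treatment were compared only within these groups.

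Pyramidal cells are the excitatory neurons of the CA fields. Dentate granule cells excite CA3 cells through mossy fibres, CA3 cells excite CA1 cells through the Schaffer collaterals, and CA1 cells carry the output of the circuit. CA2 is a small field between CA3 and CA1 that is known for its part in social memory and for its resistance to the usual induction of synaptic potentiation. Most of the markers are not confined to pyramidal cells: Pcp4 and Wfs1, for example, are also expressed in other forebrain regions. In RNA of a whole tissue, fewer cells of a type and less RNA per cell cannot be told apart.

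None of the CA pyramidal cell genes passed the test for a difference in mean level between groups in the fit of all 16 arrays. What varied was the level among individual mice, and most of all among the mice given AβPP antisense. There, Fibcd1, Pou3f1, Spink8 and Rgs14 were above their 16-array means on arrays 1 and 3 and below on arrays 2 and 4. For Pou3f1 this held on the brighter of its 2 probe sets. The CA3 gene Grik4 lay on the same sides of its mean, with 0.01, -0.22, 0.36 and -0.43 log2 on arrays 1 to 4. Wfs1, the steadiest of the genes, had a mean difference of 0.24 log2 between AβPP antisense and Random antisense. Pcp4 had one of -0.55 log2 between AβPP antisense and untreated SAMP8. Neither passed the threshold used throughout, an adjusted p under 0.05 in limma.

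Values are on a log2 scale, so that a difference of 1 is a doubling, and levels of different probe sets were not set against each other. A probe set was tested where it read over 4 on at least 4 arrays, which 10 of the 11 did. The 1 left out is a second probe set of Amigo2 (1447769_x_at), which read over 4 on 1 array and between 3.41 and 4.14 overall.

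Some arrays stood apart from the rest. Control 4 had a mean of 4.30 log2 above average for the 2 tested leukocyte genes of a list of 7 symbols, against -0.65 to 0.44 on the other 15 arrays. AβPP antisense 4 had the largest 3' minus 5' signal difference of the beta-actin control probe sets, a measure that rises as RNA is degraded, with 3.89 against 0.84 to 1.60 on the others. All 7 dentate granule cell genes and 6 of 7 forebrain excitatory neuron genes passed the filter beside the 9 CA genes. So did the 10 thalamus genes, the 8 choroid plexus genes, the 7 striatum genes and the 5 neocortex layer genes on the array, so passing it does not single out the hippocampus.

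The choroid plexus list had the largest shift of these markers in the AβPP antisense group. Its mean deviation was -2.18, -2.26, -1.88 and -0.67 on AβPP antisense arrays 1 to 4, against -0.32 to 1.49 on the other 12 arrays. The list was chosen with earlier results of these data known. Against untreated SAMP8 all 8 genes had negative differences, with a median of -2.56. In limma 4 of them were called, where 0.289% of all tested probe sets were. Clic6, a chloride channel family protein, was lower, by a difference of -2.45 (adjusted p = 0.00837), as was Kcnj13, a potassium channel, with -3.38 (adjusted p = 0.0279). Folr1, a folate receptor, was lower with -2.90 (adjusted p = 0.0295) and Kl, klotho, with -2.61 (adjusted p = 0.0427). Against Random antisense all 8 were negative too, with a median of -2.37, and 0 were called, against 0.0837% of all tested probe sets. An unadjusted p under 0.05 in limma was reached by 8 of the list and by 12.3% of all. The CA values below come from the same arrays, and the part of this shift in them was not tested.

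**Figure D1:**
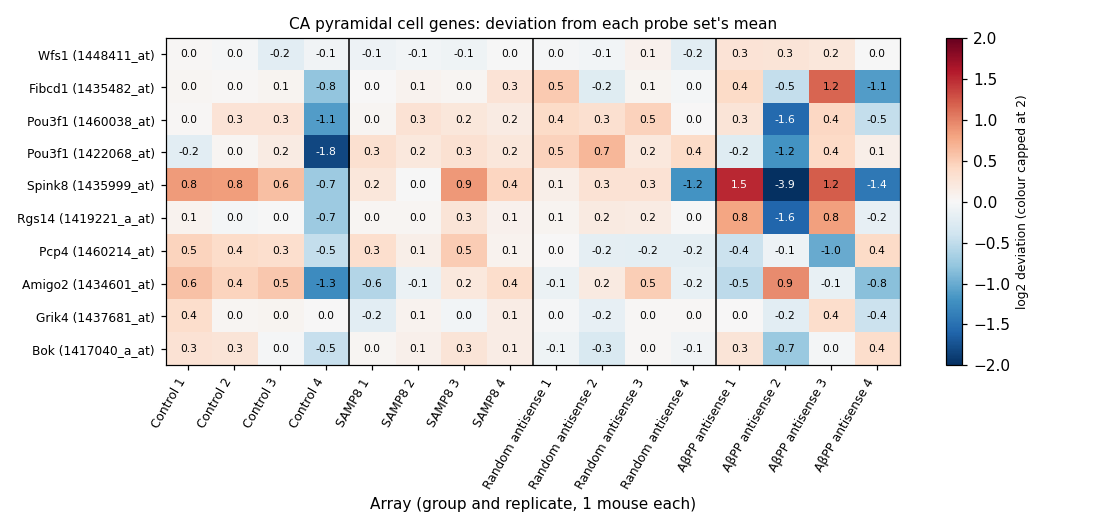
Deviation of each of the 10 tested probe sets (rows) on each of the 16 arrays (columns) from its own mean over the arrays, in log2 units, red above and blue below, with black lines between groups. On Control 4, 9 of the 10 probe sets lay below their mean, and on AβPP antisense 2, 8 did. The shares of all tested probe sets below their mean on these arrays were not computed.

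The sequences around the start of transcription are shown for a CA1 gene that was steady, a CA1 gene that split the AβPP antisense mice, and a CA2 gene. RefSeq windows of 300 bases, 250 before the start and 50 after it, were found for 6 of the 10 genes. The windows for Wfs1 (GRCm38.p6 chr5:36988933-36989232, minus strand), Fibcd1 (chr2:31845956-31846255, minus strand) and Pcp4 (chr16:96467356-96467655, plus strand) read 5′ to 3′ along the gene as follows, with GC boxes and a NeuroD-type E-box in capitals.
Wfs1: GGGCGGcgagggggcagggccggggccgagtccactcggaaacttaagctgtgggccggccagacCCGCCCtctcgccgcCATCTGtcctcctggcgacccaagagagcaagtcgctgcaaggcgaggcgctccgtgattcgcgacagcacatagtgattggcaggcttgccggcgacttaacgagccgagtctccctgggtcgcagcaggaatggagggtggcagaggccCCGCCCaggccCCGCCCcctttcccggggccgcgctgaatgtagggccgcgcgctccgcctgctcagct
Fibcd1: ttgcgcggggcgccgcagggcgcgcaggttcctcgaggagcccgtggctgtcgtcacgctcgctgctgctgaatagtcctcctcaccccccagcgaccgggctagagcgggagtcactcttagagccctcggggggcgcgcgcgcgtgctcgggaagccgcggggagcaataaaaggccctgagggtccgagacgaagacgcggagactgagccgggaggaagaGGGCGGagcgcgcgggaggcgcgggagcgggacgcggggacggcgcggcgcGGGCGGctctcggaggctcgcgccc
Pcp4: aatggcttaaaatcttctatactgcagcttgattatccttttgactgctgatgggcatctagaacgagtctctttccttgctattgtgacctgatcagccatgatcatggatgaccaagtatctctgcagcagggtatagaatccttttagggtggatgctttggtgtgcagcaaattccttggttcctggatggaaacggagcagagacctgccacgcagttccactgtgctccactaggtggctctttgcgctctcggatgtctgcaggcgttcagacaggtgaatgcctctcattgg
The Wfs1 window holds 4 GC boxes (GGGCGG on either strand, its complement written CCGCCC) and 1 NeuroD-type E-box (CAGATG on either strand, written here as its complement CATCTG). The Fibcd1 window holds 2 GC boxes, and the Pcp4 window holds neither motif. Among all 32851 windows of this length, 35.7% hold a GC box and 17.2% the NeuroD-type E-box. None of the 3 windows holds the TATA box TATAAA, the E-box CAGCTG or the cAMP response element TGACGTCA, searched on both strands, which 13.6%, 16.3% and 1.79% of all windows hold. The motifs searched do not overlap one another in these windows. GC content was 70% for Wfs1, 74.3% for Fibcd1 and 48.7% for Pcp4, against a median of 52.7% over all windows, and the windows held 30, 46 and 6 CpG pairs against a median of 7. A match of letters is a description and shows no binding.

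Among the CA1 genes, Spink8 varied most between mice. Spink8 encodes a secreted protein of the Kazal family of serine protease inhibitors. Its probe set (1435999_at) read 7.48, 7.47, 7.24 and 5.90 on Control arrays 1 to 4. In untreated SAMP8 it read 6.86, 6.62, 7.50 and 7.06. After Random antisense it read 6.75, 6.92, 6.92 and 5.44. After AβPP antisense it read 8.13, 2.78, 7.84 and 5.20. The AβPP antisense group thus held both the 2 highest and the 2 lowest readings of the series, and its arrays lay on both sides of each other group. AβPP antisense 2 was the only array on which Spink8 read under the filter level of 4. The group means were 5.99 ± 2.51 (SD, n = 4) after AβPP antisense and 6.51 ± 0.71 after Random antisense, a difference of -0.52 log2 (SE 0.88, limma adjusted p = 0.853). Without AβPP antisense 2 that difference was 0.55, and without AβPP antisense 1 it was -1.23.

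Fibcd1, a membrane receptor that binds acetylated sugars such as chitin and is a marker of dorsal CA1, showed a similar split. Its probe set (1435482_at) read 8.06, 8.03, 8.07 and 7.24 in Control and 8.03, 8.10, 8.06 and 8.29 in untreated SAMP8. After Random antisense it read 8.54, 7.78, 8.07 and 7.98. After AβPP antisense it read 8.39, 7.55, 9.19 and 6.91, so that arrays 3 and 4 of this group were the highest and the lowest of all 16. The difference between AβPP antisense and Random antisense was -0.08 log2 (SE 0.37, limma adjusted p = 0.948), with means of 8.01 ± 1.00 and 8.09 ± 0.32 (SD, n = 4). The 95% interval of this difference ran from -0.87 to 0.71. Without AβPP antisense 3 the difference was -0.48, and without AβPP antisense 4 it was 0.28.

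Pou3f1, a POU domain transcription factor, has 2 probe sets, which differed in the order of the AβPP antisense mice. The brighter one (1460038_at) read 9.42, 9.66, 9.67 and 8.27 in Control and 9.43, 9.68, 9.61 and 9.55 in untreated SAMP8. After Random antisense it read 9.78, 9.72, 9.85 and 9.40, and after AβPP antisense 9.65, 7.83, 9.80 and 8.91. Control 4 and AβPP antisense 2 and 4 were the 3 low arrays, and the other 13 lay between 9.40 and 9.85. Between AβPP antisense and Random antisense the difference was -0.64 (SE 0.37, limma adjusted p = 0.514), and -0.65 (SE 0.38, limma adjusted p = 0.514) on the second probe set (1422068_at). Without AβPP antisense 2 the values were -0.23 and -0.33. The second probe set read 7.56, 6.59, 8.19 and 7.92 after AβPP antisense, so that array 1 lay below its mean and array 4 above it, and only arrays 2 and 3 kept the sides they had on the brighter one.

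The second Pou3f1 probe set also set the lines side by side without overlap. It read 7.58, 7.83, 7.96 and 5.97 in Control and 8.11, 8.0, 8.09 and 8.02 in untreated SAMP8. The lowest SAMP8 array lay just above the highest Control array (two-sided exact test, p = 0.0286, beyond which groups of 4 cannot go). SAMP8 minus Control was 0.72 (SE 0.38, limma adjusted p = 0.999), and 0.27 without Control 4. It was the 1 of 10 member probe sets whose groups did not overlap in that comparison, where 4.81% of all tested probe sets had none. On the brighter probe set the difference was 0.31 (SE 0.37, adjusted p = 0.999), and -0.01 without Control 4.

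**Figure D2:**
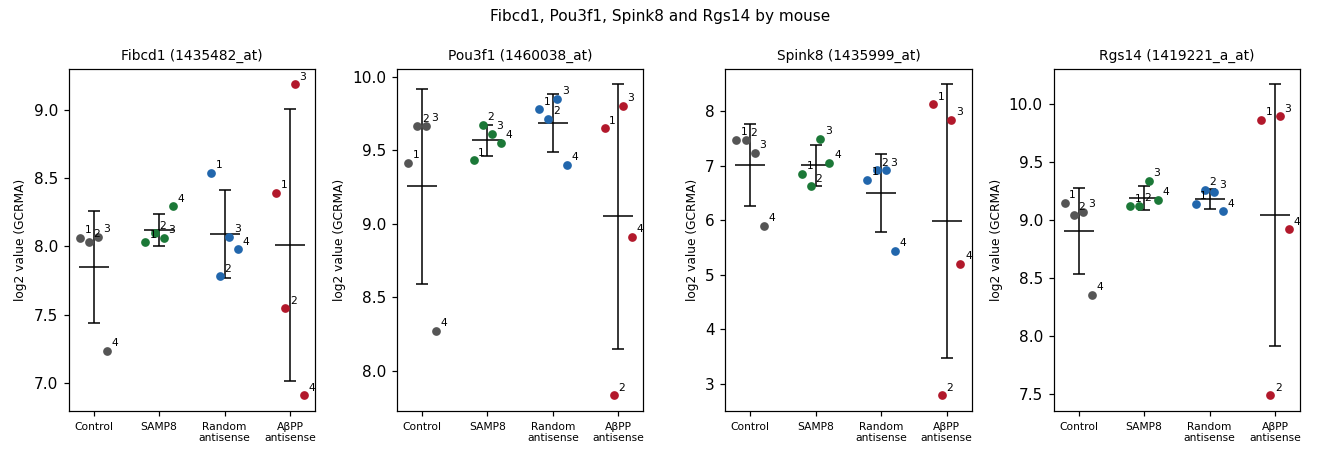
Log2 values of Fibcd1, Pou3f1 (brighter probe set), Spink8 and Rgs14 in the 4 groups, 1 numbered point per mouse, with the group mean and SD as a horizontal line and bar. AβPP antisense array 2 lies below the other groups' means in every panel, and Spink8 runs from 2.78 to 8.13 in this group.

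Wfs1 differed from the other CA1 genes in being steady. Wfs1 encodes wolframin, a protein of the endoplasmic reticulum membrane. Its probe set (1448411_at) read 9.83, 9.78, 9.58 and 9.73 in Control, 9.69, 9.75, 9.71 and 9.79 in untreated SAMP8, and 9.78, 9.74, 9.88 and 9.59 after Random antisense. After AβPP antisense it read 10.07, 10.06, 10.02 and 9.80. Arrays 1 to 3 of this group were above every other array of the series, among them AβPP antisense 2, on which the other CA1 genes lay below their means. Its SD over the 16 arrays was 0.15, lower than that of all but 7.38% of the tested probe sets. The AβPP antisense mean was 9.99 ± 0.13 and the Random antisense mean 9.75 ± 0.12 (SD, n = 4). Their difference was 0.24 (SE 0.10, 1.18-fold, limma p = 0.0336, adjusted p = 0.371, exact p = 0.0571). AβPP antisense minus untreated SAMP8 was 0.25 (SE 0.10, limma p = 0.0255, adjusted p = 0.271), without overlap of the groups (two-sided exact p = 0.0286). Wfs1 was the 1 of 10 member probe sets without overlap there, where 7.96% of all tested probe sets had none. With 1 array left out in turn, the difference from Random antisense stayed between 0.19 and 0.30 and that from untreated SAMP8 between 0.23 and 0.32, and none passed (limma adjusted p from 0.156).

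Of the CA2 genes, Rgs14 split the AβPP antisense mice like Spink8, Fibcd1 and the brighter Pou3f1 probe set, and unlike Wfs1. Rgs14 is a regulator of G protein signalling that limits synaptic plasticity in CA2. Its probe set (1419221_a_at) read 9.15, 9.04, 9.07 and 8.36 in Control and 9.12, 9.12, 9.34 and 9.17 in untreated SAMP8. After Random antisense it read 9.14, 9.26, 9.24 and 9.08, and after AβPP antisense 9.86, 7.49, 9.89 and 8.92. The untreated SAMP8 and Random antisense arrays spanned 9.08 to 9.34, while AβPP antisense arrays 1 and 3 lay above that span and arrays 2 and 4 below it. The SD was 1.13 after AβPP antisense and 0.09 after Random antisense (n = 4 each). The difference of the means was -0.14 (SE 0.39, limma adjusted p = 0.915), and 0.38 without AβPP antisense 2.

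Pcp4 followed another order of mice. Pcp4 encodes a small protein that modulates calmodulin. Its probe set (1460214_at) read 13.80, 13.72, 13.69 and 12.87 in Control and 13.68, 13.47, 13.86 and 13.42 in untreated SAMP8. After Random antisense it read 13.36, 13.17, 13.16 and 13.16, and after AβPP antisense 12.92, 13.24, 12.35 and 13.73. All 4 Random antisense arrays lay below all 4 untreated SAMP8 arrays, and in the AβPP antisense group arrays 1 and 3, high for Spink8 and Rgs14, were the low ones. Random antisense minus untreated SAMP8 was -0.39 (SE 0.25, limma adjusted p = 1.00, exact permutation p = 0.0286, two-sided). The AβPP antisense mean was 13.06 ± 0.58 and the untreated SAMP8 mean 13.61 ± 0.20 (SD, n = 4). Their difference was -0.55 (SE 0.25, 1.46-fold, limma p = 0.0493, adjusted p = 0.339, exact p = 0.143), and the groups overlapped through AβPP antisense 4. Without both Control 4 and AβPP antisense 4 it was -0.77 and passed the threshold (limma adjusted p = 0.0454). With 1 array left out in turn it ran from -0.77 to -0.31, and none of these 16 fits passed (adjusted p from 0.169). Set against Random antisense, the AβPP antisense mean differed by -0.15 (SE 0.25, limma adjusted p = 0.849), and by 0.08 without AβPP antisense 3.

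The 10 thalamus genes, a list that includes no CA gene, were low on the same arrays as Pcp4. On AβPP antisense arrays 1 to 4 their mean deviation from average was -1.73, 0.15, -1.74 and 0.47, with 10, 5, 10 and 2 of the 10 genes below their own mean. Their mean level ran from 8.99 to 10.11 in Control, 9.44 to 9.70 in untreated SAMP8, 8.53 to 9.34 after Random antisense and 7.42 to 9.63 after AβPP antisense. The thalamus genes of smallest p between AβPP antisense and untreated SAMP8 were Zic1, a zinc finger transcription factor, with -1.84 (limma adjusted p = 0.103) and Prkcd, protein kinase C delta, with -1.81 (limma adjusted p = 0.143). The part of thalamic RNA in its values was not tested.

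Amigo2, a cell adhesion protein of the CA2 field, read 6.29, 6.16, 6.24 and 4.45 in Control (1434601_at). It read 5.13, 5.59, 5.93 and 6.06 in untreated SAMP8, and 5.59, 5.89, 6.19 and 5.56 after Random antisense. After AβPP antisense it read 5.19, 6.66, 5.56 and 4.87. AβPP antisense 2, the lowest array for Spink8, Rgs14 and the brighter Pou3f1 probe set, was the highest of all for Amigo2. All groups overlapped, and the differences lay between -0.24 and 0.13 in the 4 comparisons (limma adjusted p from 0.859). SAMP8 minus Control was -0.11 with all arrays and -0.55 without Control 4 (limma adjusted p = 1.00).

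Of the CA3 genes, Grik4 varied little between mice. Grik4, the GluK4 subunit of kainate receptors found at mossy fibre synapses, read 7.16, 6.84, 6.85 and 6.81 in Control and 6.58, 6.87, 6.75 and 6.94 in untreated SAMP8 (1437681_at). It read 6.77, 6.64, 6.82 and 6.82 after Random antisense and 6.81, 6.58, 7.16 and 6.37 after AβPP antisense. Arrays 3 and 4 of the AβPP antisense group were its highest and lowest of all 16, as for Fibcd1, though Control 1 also read 7.16. The 4 groups overlapped in every comparison, and the differences lay between -0.13 and -0.02 (limma adjusted p from 0.897). That between AβPP antisense and Random antisense was -0.03, with a 95% interval of -0.36 to 0.29.

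Bok, a member of the BCL-2 family of cell death regulators, read 9.82, 9.78, 9.50 and 9.07 in Control and 9.56, 9.62, 9.78 and 9.67 in untreated SAMP8 (1417040_a_at). It read 9.44, 9.21, 9.55 and 9.45 after Random antisense and 9.78, 8.79, 9.49 and 9.87 after AβPP antisense. As with Pcp4, all Random antisense arrays lay below all untreated SAMP8 arrays, though the nearest (9.55 and 9.56) almost met. The means differed by -0.24 (SE 0.21, limma adjusted p = 1.00, exact permutation p = 0.0286, two-sided). Bok and Pcp4 were 2 of 10 member probe sets without overlap in this comparison, where 8.1% of all tested probe sets had none. The AβPP antisense arrays of Bok lay on both sides of the Random antisense arrays, with a difference of 0.07 (SE 0.21, limma adjusted p = 0.925). AβPP antisense 2 was the lowest array of Bok, as for Spink8, Rgs14 and the brighter Pou3f1 probe set. AβPP antisense 4, low for Fibcd1 and Spink8, was its highest array. Between AβPP antisense and Random antisense 0 of 10 member probe sets were without overlap, against 7.58% of all.

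**Figure D3:**
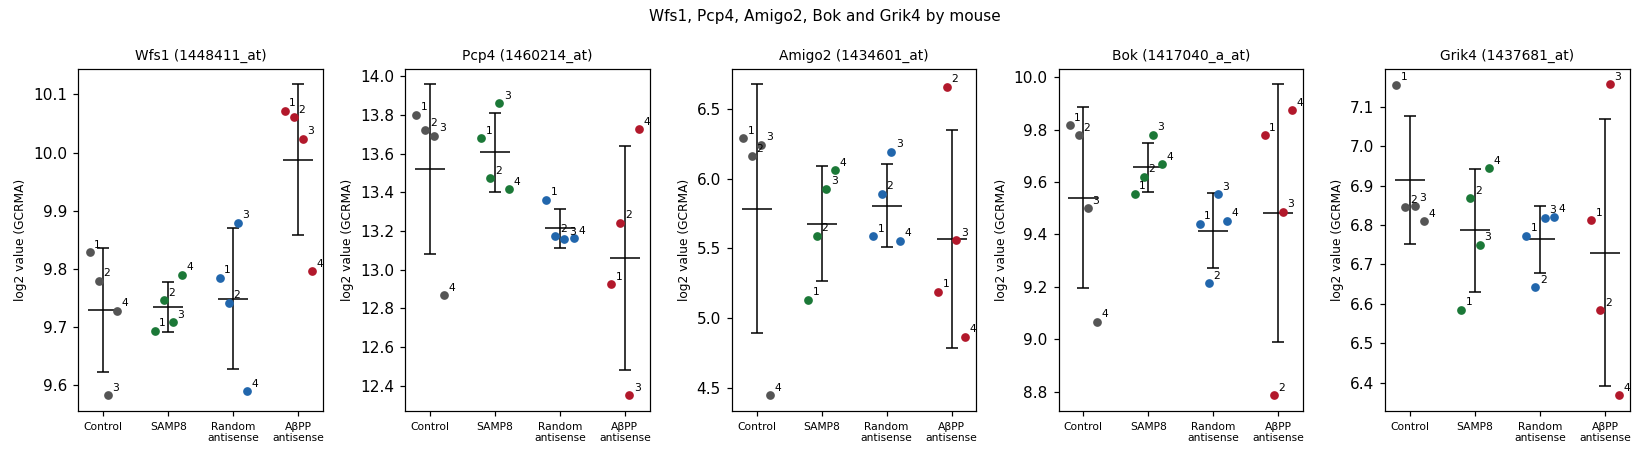
Log2 values of Wfs1, Pcp4, Amigo2, Bok and Grik4 in the 4 groups, 1 numbered point per mouse, with the group mean and SD as a horizontal line and bar. Wfs1 lies between 9.58 and 10.07 over all mice, and Pcp4 is lowest on AβPP antisense 3 (12.35).

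Counted over the 10 tested probe sets, no comparison called a member at an adjusted p under 0.05. Untreated SAMP8 minus Control called 0 of 10, where 0.36% of all 23905 tested probe sets were called, with a median difference of 0.10 over the members and 0.04 over all. Random antisense minus untreated SAMP8 called 0 of 10, where 0% of all were called in limma (267 probe sets had an unadjusted p under 0.05, and 19 were called with array weights). The medians were -0.02 and -0.01. AβPP antisense minus Random antisense called 0 of 10, against 0.0837% of all, with medians of -0.15 and 0.01 and negative values for 8 of the 10. AβPP antisense minus untreated SAMP8 called 0 of 10, against 0.289% of all, with medians of -0.16 and 0.00 and negative values for 9 of the 10. Comparisons that share a group (SAMP8, Random antisense or AβPP antisense) share its arrays, so their values are not independent. At an unadjusted p under 0.05 the members passed 0, 0, 1 and 2 times in limma, in the order given, against 4.38%, 1.12%, 12.3% and 14.7% of all tested probe sets. The F test over the 4 groups called 0 of 10 as well, against 0.849% of all, and its lowest adjusted p was 0.387, for Wfs1.

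**Figure D4:**
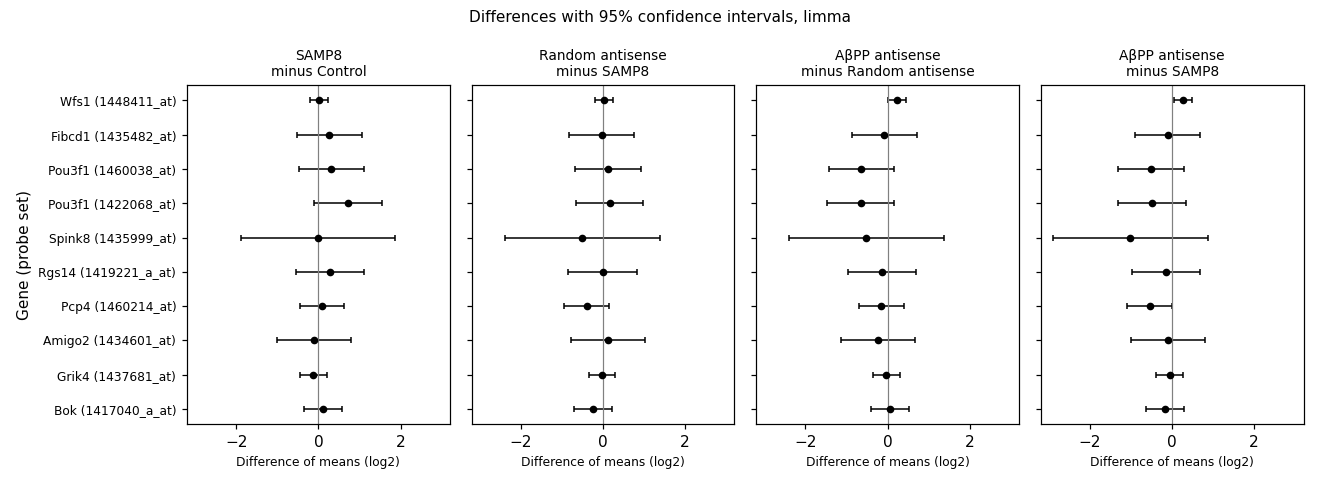
Difference of means (log2) for each tested probe set in the 4 comparisons, with 95% confidence intervals from the limma fit of all 16 arrays. Intervals are widest for Spink8 (-2.40 to 1.37 for AβPP antisense minus Random antisense) and narrowest for Wfs1 (0.02 to 0.46).

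The spread within groups was uneven. The AβPP antisense group had the largest SD of the 4 groups for 8 of the 10 member probe sets and the Control group for the other 2, where these shares were 60.6% and 35.0% of all tested probe sets. The large spread after AβPP antisense was therefore found for most of the array as well. Of the 10 member probe sets, 4 had their lowest value of the series on AβPP antisense 2, 2 on Control 4 and 2 on AβPP antisense 4. The shares of all tested probe sets with their lowest value on these arrays were not computed.

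Some CA genes varied together over the arrays by Pearson's r, but over all 16 arrays no pair passed by rank. Over the 16 arrays Spink8 and Rgs14 had Pearson's r = 0.88 (permutation p = 7.0e-05, adjusted 0.00126) and Spearman's rho = 0.74 (permutation p = 0.00165, adjusted 0.0594), with r = 0.72 after leaving out AβPP antisense 2 and 4. Pou3f1, read here by its brighter probe set only, and Rgs14 had r = 0.88 (permutation p = 5.0e-05, adjusted 0.00126) and rho = 0.64 (permutation p = 0.00935, adjusted 0.0599). For this pair r was 0.46 without AβPP antisense 2 and Control 4. On values minus their group means its r was 0.93 (adjusted permutation p = 0.0536), and 0.87 without the same arrays. Of the 36 pairs of the 9 genes, 6 passed an adjusted p of 0.05 by r, all positive, and 0 by rho. After subtracting group means, Spink8 and Rgs14 passed by both (r = 0.97, adjusted permutation p = 0.00396; rho = 0.93, adjusted permutation p = 0.0198). The 16 points share the arrays and their normalization.

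The dentate granule cell list and the forebrain excitatory neuron list were high and low on the same arrays 1 to 3. On AβPP antisense arrays 1 to 4 the 4 CA1 genes had a mean deviation of 0.60, -1.41, 0.76 and -0.76 from average. Of these 4 genes, 3 lay below their mean on array 2, where Spink8 had -3.85 and Wfs1 0.26. Mean deviations of the 7 dentate genes were 0.67, -1.84, 0.93 and -0.94, and all 7 lay below their mean on array 2. The 6 forebrain excitatory neuron genes had 0.50, -1.33, 0.60 and 0.04, and all 6 lay below their mean on array 2. None of these genes was called in limma. Between AβPP antisense and Random antisense the dentate genes of smallest p were Lct (lactase) and Dsp (desmoplakin). They differed by -1.78 (adjusted p = 0.504) and -1.18 (adjusted p = 0.599). Those of the excitatory list, Slc17a7 (the vesicular glutamate transporter VGLUT1) and Nrgn (neurogranin), differed by -0.68 (adjusted p = 0.408) and -0.55 (adjusted p = 0.563). Against untreated SAMP8 the dentate gene of smallest p was C1ql2, with -1.16 (adjusted p = 0.164). There 5 of the 7 dentate genes had negative differences and 2 positive. On Control 4 the same 3 lists had -0.68, -1.05 and -0.80. Lists of other cells were not all alike on AβPP antisense 2. The choroid plexus list was low on this array too, with a mean deviation of -2.26 and 7 of its 8 genes below their mean. On the same array the 6 astrocyte genes had a mean deviation of 0.48 and the 7 oligodendrocyte lineage genes 0.39 with 0 below their mean. The 4 endothelial and mural genes had 0.70 with 0 below. The 7 microglia genes had 0.22, and the 1 tested red blood cell gene, Alas2, had 4.27. The 6 interneuron genes had -0.25 and the 5 neocortex layer genes -0.43. The 7 striatum genes had -0.16 and the 2 leukocyte genes -0.17. The part of these cells in the CA values was not tested.

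Other genes of the CA fields, listed apart from the members, gave no called difference either. Of 5 other CA1 genes, 4 other CA2 genes and 5 other CA3 genes tested, 0 passed in any of the 4 comparisons in limma. An unadjusted p under 0.05 was reached for 1 of them, Coch, in 2 comparisons. These were AβPP antisense minus Random antisense and minus untreated SAMP8, where 12.3% and 14.7% of all tested probe sets reached it. The medians of AβPP antisense minus Random antisense were -0.03, 0.22 and -0.55 for the 3 lists, against 0.04 over all genes tested. Coch, which encodes cochlin, an extracellular protein of the CA3 list, had -1.11 (SE 0.47, adjusted p = 0.374) against Random antisense and -1.24 (SE 0.47, adjusted p = 0.25) against untreated SAMP8. Dkk3, a secreted protein of the Dickkopf family, had -0.55 (SE 0.29, adjusted p = 0.463) and -0.40 (SE 0.29, adjusted p = 0.539). Against Random antisense, the genes of smallest p in the CA1 list were Foxp1, a forkhead transcription factor, with -0.31 (adjusted p = 0.613) and Ccn3, a matrix protein, with -0.35 (adjusted p = 0.637). In the CA2 list they were Necab2, a calcium-binding protein, with 0.19 (adjusted p = 0.765) and Syce2, a protein of the meiotic synaptonemal complex, with 0.37 (adjusted p = 0.828). Against untreated SAMP8 they were Mpped1 with 0.25 (adjusted p = 0.561) and Man1a, a mannosidase of the Golgi, with -0.34 (adjusted p = 0.703) in the CA1 list. In the CA2 list they were Cacng5, a transmembrane AMPA receptor regulator, with -0.59 (adjusted p = 0.366) and Syce2 with 0.42 (adjusted p = 0.761). The mean deviation of the CA3 list on AβPP antisense arrays 1 to 4 was 0.42, -1.29, 0.44 and -0.64, the same high and low arrays as for the CA1 members, and all 5 of its genes lay below their mean on array 2. The other CA1 list had 0.40, -0.56, 0.43 and -0.39, with all 5 genes below their mean on array 2. The other CA2 list broke this order, with -0.19, -0.34, 0.24 and 0.17.

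**Figure D5:**
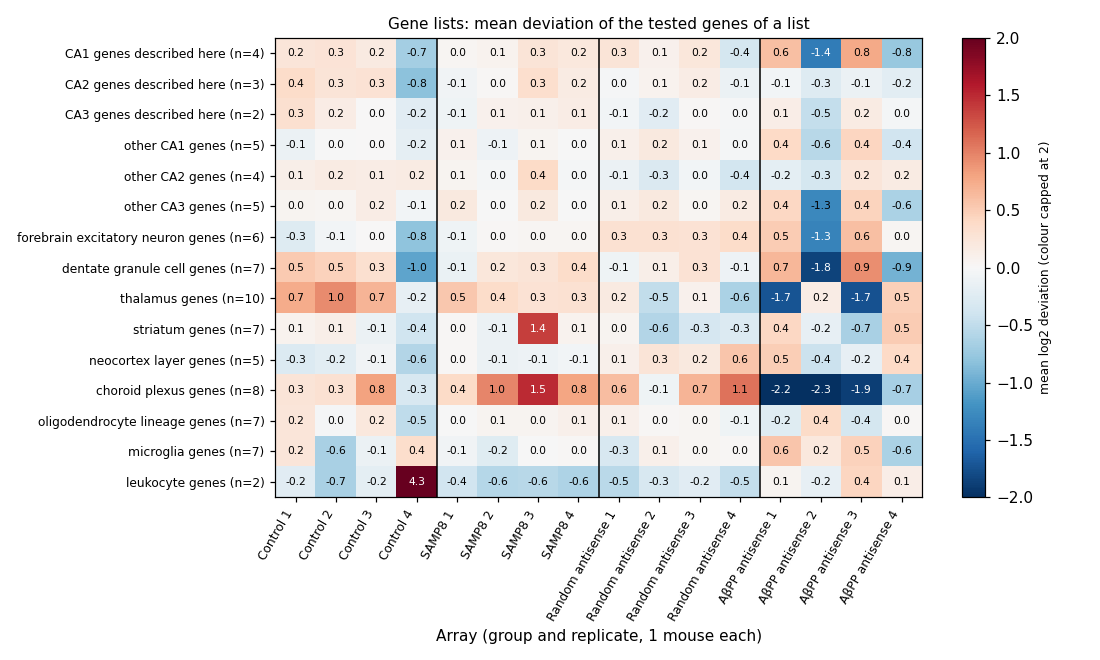
Mean deviation (log2) of the tested genes of each list (rows, n genes) on each array (columns) from the genes' own means, red above and blue below, with colour capped at 2 in either direction. The CA1, dentate and other CA3 lists are high on AβPP antisense arrays 1 and 3 and low on array 2, the thalamus genes are at -1.73 and -1.74 on arrays 1 and 3, and the leukocyte genes are at 4.30 on Control 4.

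Outside the members, the gene whose profile over the 16 arrays lay nearest to each of the more variable members was found by the root mean square difference of the profiles after centring each on its own mean. For Spink8 it was Olfml2b, an olfactomedin-like protein (0.44 log2), and for Rgs14 it was Syne1, a nesprin of the nuclear envelope (0.13 log2). For Fibcd1 it was Synpr, the synaptic vesicle protein synaptoporin (0.19 log2), and for Pou3f1 the chemokine Cxcl12 (0.19 log2). For Pcp4 it was Adarb1, an RNA-editing adenosine deaminase (0.17 log2), and for Amigo2 the zinc finger gene Zfp383 (0.28 log2). Olfml2b read 7.82, 3.79, 8.03 and 6.04 on AβPP antisense arrays 1 to 4, which is the order of Spink8 with arrays 1 and 3 exchanged. Adarb1 read 8.51, 9.17, 8.18 and 9.58 there, the order of Pcp4. Wfs1, Grik4 and Bok varied too little (SD under 0.3) for a nearest gene to be sought.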

How the data were processed

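Each array carried labelled RNA from the hippocampus of 1 mouse. The log2 values were deposited by the authors, and the submitters' processing notes name GCRMA, which adjusts probe background by sequence, puts arrays on a common distribution and summarises probes to a probe set. No GCRMA version was given in the sources used here. Random antisense 1 has a treatment label of none, while its title places it with Random antisense, where it was kept. Without 64 control probe sets, 23905 of 45037 passed the filter (over 4 log2 on at least 4 arrays). Of the 45037, 34945 have 1 gene symbol, 932 several and 9160 none, and a gene on a list was read by its tested probe set with the highest mean. A one-way limma fit took all 16 arrays (12 residual and 2.63 prior degrees of freedom). Its p-values were adjusted by Benjamini-Hochberg over all tested probe sets, and it was tested on simulated data. Exact permutation tests of single probe sets had 70 assignments and are unadjusted, and correlations had 100000 permutations, adjusted over 36 pairs. Named from each list were called genes and the 2 of smallest p in a comparison described. The nearest gene was sought for members with an SD of at least 0.3 log2, among genes of similar SD. The members and lists were chosen with earlier results of these data known. Replicates are mice, and their number limits the precision. Alternatives covered filters, normalization, array weights, a covariate and left-out arrays. Tools were limma 3.58.1 in R 4.3.3, with numpy 2.4.6 and matplotlib 3.10.9 in Python 3.11.15.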

Additional observations from a re-analysis of the deposited data

Results flagged for a closer look

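In 10 of the 44 sets of 4 arrays (11 probe sets in 4 groups) 1 array lay far from the other 3, by the ratio of its gap to the nearest array over the range of the group, with a limit of 0.829. Chance alone gives about 1 in 20 for independent sets, but these sets share the same arrays and are not independent. The share of such sets among all tested probe sets was not computed, so the count does not single out the CA genes. Control 4 was the low array in 5 of the 10 sets. Its ratio was 0.955 for Fibcd1 (7.24), 0.850 for Spink8 (5.90), 0.870 for Rgs14 (8.36), 0.884 for Pcp4 (12.87) and 0.929 for Amigo2 (4.45). Control 1 was the high array for Grik4, with 0.888 (7.16). Random antisense 4 was the low array for Spink8, with 0.882 (5.44), and Random antisense 1 the high one for Pcp4, with 0.924 (13.36). The second Amigo2 probe set, below the filter, had 0.860 for SAMP8 2 (3.60) and 0.948 for Random antisense 1 (3.69). No AβPP antisense array passed the limit for any member, and the nearest was AβPP antisense 4 for Wfs1, with 0.827.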

How the results depend on the processing

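No member probe set passed in the fit of all arrays, and the same held under most alternatives. The exceptions were both Pcp4. In AβPP antisense minus untreated SAMP8, 1 member passed without Control 4 and AβPP antisense 4 (limma adjusted p = 0.0454), and 1 passed the F test with array weights (limma adjusted p = 0.0171). Of 1080 member differences (10 probe sets, 4 comparisons, 27 alternatives), 83 changed sign and 1 was called. None of the 16 fits that left out 1 array called a member. The F test was not run on 8 arrays alone.

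Over all probe sets, the counts called in the 4 comparisons (untreated SAMP8 minus Control, Random antisense minus untreated SAMP8, AβPP antisense minus Random antisense, AβPP antisense minus untreated SAMP8) were 86, 0, 20 and 69. They were 76, 0, 18 and 31 with no filter, 68, 0, 13 and 52 with a filter at 6 log2, and 37, 0, 0 and 5 with only the 8 arrays compared. Without Control 4 and AβPP antisense 4 they were 123, 0, 199 and 401. They were 92, 0, 13 and 96 with Random antisense 1 read as untreated SAMP8, and 70, 0, 11 and 24 with it in no group. Array weights gave 295, 19, 35 and 73, and a beta-actin 3' minus 5' covariate gave 111, 0, 59 and 72. Leaving out 1 array in turn gave 54 to 115, 0 to 0, 11 to 896 and 16 to 1286, the highest of the last 2 without AβPP antisense 3. The cause was not tested.

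Pairs of member genes with a called Pearson correlation numbered 6, then 1 without Control 4 and AβPP antisense 4, and 1 after subtracting group means.

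Deviations of arrays with the same number correlated at -0.27 to 0.24, and not every pair was over 0.1. Arrays of different numbers were not correlated for comparison, so this cannot decide whether the numbers pair the mice. The main fit did not pair them. With the replicate block the counts were 71, 0, 17 and 63, with 0 members called. Signal over background limits Spink8 and Amigo2 most, since single arrays of these lay near or under the filter level.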
